A study of Mus musculus with 7 samples.

Results

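The sites described here are 1120 windows of 500 bp in the mouse genome (build mm9) whose reporter RNA was at least 1.5-fold lower in a library from stimulated T cells than in the matching library without the stimulus. They are called falling bins below. They were chosen by the measured values themselves: a log2 ratio of PMA_I over pPGK reporter reads at or under -0.585, and a pPGK reporter to input ratio above -0.5 on the log2 scale, so that sites with low output before stimulation were left out. The series was cut into 30857 such bins with at least 50 input reads with each promoter. Of these, 24301 were not low with pPGK, and the falling bins were 1120 of the 24301.

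The assay was CapStarr-seq, in which DNase hypersensitive sites are captured and cloned behind a promoter, inside the transcript that they regulate. Output is read as the ratio of a site's reporter RNA reads to its input plasmid reads, and it is relative to the average site. The host was P5424, a mouse T cell line of immature phenotype, grown in RPMI with 10% serum, and the values hold for that 1 line. RNA expression of the cells was not measured, so the label of the line could not be checked against marker genes.

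There were 7 samples, each the sole library of its group. The 4 reporter libraries carried the SCP1 promoter, the pPGK promoter, the pPGK promoter with the title word PMA_I, and a promoter labelled pR-Ea, and 3 plasmid inputs went with SCP1, pPGK and pR-Ea. Since PMA and ionomycin stand in the treatment field of all 7 samples, the stimulus was assigned from the title of the PMA_I library alone. Both pPGK reporters were read against the same input. No group had a second library, so nothing below has a replicate check or a test, and every difference is a difference between these libraries.

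PMA is a phorbol ester that switches on protein kinase C, and ionomycin is an ionophore that raises intracellular calcium. Together they bypass the T cell receptor and activate NFAT, AP-1 and NF-kB, which turn many enhancers of T cells up. Other elements lose output under such a stimulus. SCP1 is a synthetic core promoter built from several strong core elements, and pPGK is the promoter of the housekeeping gene for phosphoglycerate kinase. The sources used here do not say what the label pR-Ea stands for. Enhancers often, though not always, work with more than 1 promoter. The SCP1 and pR-Ea libraries are the ones that the choice of the falling bins did not use, apart from the minimum of input reads.

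Reporter depth over all listed positions ran from 51450446 reads (pR-Ea) to 72217277 reads (pPGK). Among the reads used, in kept bins and with a mapping score of at least 30, the order differed. There pPGK had the fewest reporter reads, 27252452, and SCP1 the most, 35555069, with 31464078 for PMA_I. The median falling bin held 508 pPGK reads at 29 distinct positions and 332 PMA_I reads at 22 positions, and the median over all kept bins was 35 positions with pPGK. The files had been filtered differently: mapping scores under 30 occurred in both pPGK files and in neither of the other 2, and 65.3% of pPGK and 99.5% of PMA_I reporter reads reached 30. Here only positions with a score of 30 or more were used. A position that passes can still be listed under 30 in another file, or on its line for the other strand in the same file. Such positions are named low-score positions here. They held over 10% of the pPGK reads in 196 falling bins (17.5%) and in 8.80% of all kept bins. By the pPGK file's own scores the order was the other way: reads under 30, which were not used, made up over 10% of the pPGK reads in 21.3% of falling bins and 29.7% of all kept bins. Genome sequence and gene annotation of build mm9 were not used here, so bins are given by coordinate, without gene names or sequences.

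The selected change itself was small for most falling bins. The log2 ratio of PMA_I over pPGK had a median of -0.71 and a lowest value of -5.74 in falling bins, against a median of 0.02 and a standard deviation of 0.41 over all kept bins. Of the 1120, 661 (59.0%) lay between -0.75 and the threshold, 297 lay between -1 and -0.75, and 162 were at least 2-fold lower. At the 1.5-fold threshold 4.38% of all kept bins and 4.61% of bins not low with pPGK were lower, and 1022 bins not low with pPGK were at least 1.5-fold higher. This balance depends on the processing: it was 1209 falls against 886 rises with medians set to 0, 2323 against 992 without the position with most reads, and 1149 against 8924 without the score filter. The standard error over positions, which takes positions as independent and leaves out variation between cultures, had a median of 0.23 in falling bins. Bins next to the threshold differed little across it. Just inside, chr8:128998501-128999000 and chrX:7150501-7151000 had log2 ratios of -0.59 with standard errors of 0.16 and 0.14. Just outside, chr2:60719001-60719500 and chr7:3645001-3645500 had -0.58 with standard errors of 0.18 and 0.50. At the other threshold, chr11:53164001-53164500 and chr1:184339001-184339500 were inside with a pPGK activity of -0.50 and -0.49, and chr9:107133001-107133500 and chr2:179759001-179759500 were outside with -0.50.

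Before stimulation the median falling bin sat at an ordinary level. The pPGK activity of the falling bins, the log2 ratio of reporter over input, had a median of 0.23, and that of the other 23181 bins not low with pPGK was 0.23 as well. At the upper end they differed: 86 falling bins (7.68%) were at least 2-fold above input with pPGK, against 4.74% of the others and 3.84% of all kept bins. The choice of the bins used these pPGK reads. With PMA_I the median activity was -0.53, against 0.25 in the others. With PMA_I, 938 of 1120 were under input, and 620 of these had been over it. A count of 187 (16.7%) was at least 2-fold under input in the PMA_I library, where 10.2% of all kept bins were, and 6 were at least 2-fold above it, where 7.36% of all kept bins were. Both values follow from the choice of the bins. All ratios were scaled to the library totals over kept bins, so a lower share of the reads and a smaller total of reporter RNA cannot be told apart.

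The largest falls were concentrated where some file gave low mapping scores. Among the 38 falling bins with a ratio at or under -2, 32 (84.2%) had over 10% of their pPGK reads at low-score positions, and 35 had over 50% of them at positions listed on both strands. Among the 661 with the smallest falls these shares were 11.3% and 8.02%. The plot of change against the number of positions shows this separation. When positions listed under 30 in any file or on both strands were left out, 3 of the 38 and 309 of the 661 still met the rule. Bins without a value under this setting count here as not meeting it. Of all falling bins, 962 had a value, and the bin with the lowest ratio, chr9:35113001-35113500, had none. The count of 3 therefore does not show that the other falls were absent. The part of low scores in the largest falls was not tested.

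**Figure D1:**
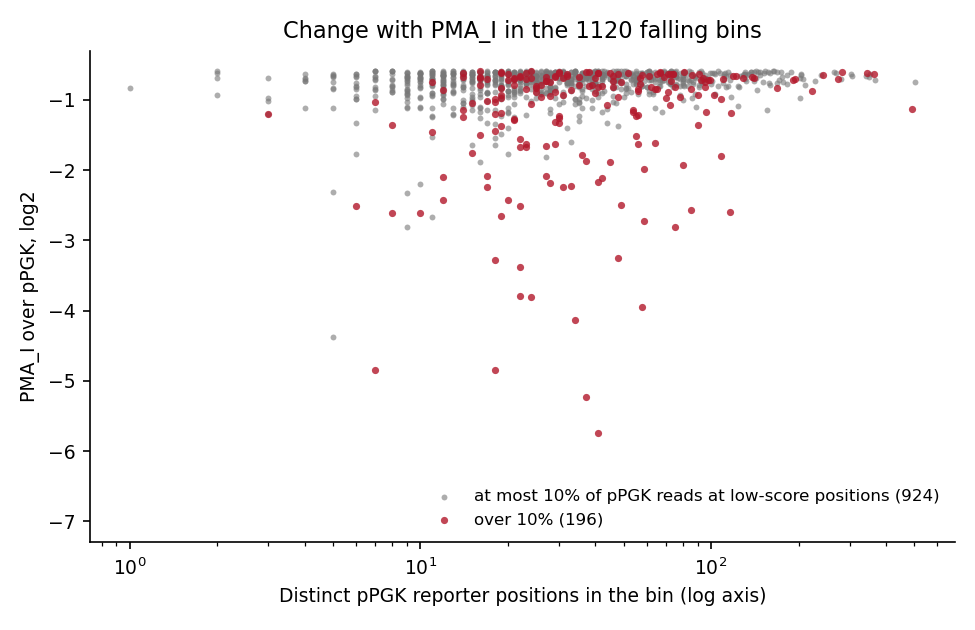
Each point is 1 of the 1120 falling bins: the log2 ratio of PMA_I over pPGK reporter reads against the number of distinct pPGK positions on a log axis. Red points, 196 bins, have over 10% of their pPGK reads at positions that some file lists under score 30, and most bins below -2 are red.

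Levels below are in RPM, reads scaled to 1000000 over the kept bins of a library, and are comparable between libraries of different input only through the ratio to input. The bin with the lowest ratio, chr9:35113001-35113500, had 831 RPM with pPGK, 15.5 with PMA_I, 22.4 with SCP1 and 32.3 with pR-Ea. The pPGK library was the one that stood high, in input too, with 10084 reads against 512 with SCP1 and 392 with pR-Ea. The fall was 53.6-fold (log2 ratio -5.74 ± 0.26, SE over positions). All of its pPGK reads (100%) lay at low-score positions and on both strands. The bin chr9:35112501-35113000, which touches it, held the most pPGK and PMA_I reads together of any falling bin, with 1644 RPM with pPGK, 278 with PMA_I, 82.5 with SCP1 and 343 with pR-Ea. There too the pPGK library was the high one, and 36.4% of the pPGK reads were at low-score positions.

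Other bins with a low ratio and at least 200 reads at 10 or more pPGK positions were alike in this. At chr4:70039001-70039500 the pPGK library had 75.04 RPM and PMA_I 1.97, and 96.4% of the pPGK reads lay at low-score positions. At chr6:103598501-103599000 the values were 326 and 11.3, and 75.8% lay at such positions. At chr9:3026501-3027000 they were 117 and 7.53, with 91.7% at such positions. In each of the 12 bins with the lowest ratio under those minimums, low-score positions held between 27.5% and 100% of the pPGK reads. Without the minimums, 6 of the 38 bins at or under -2 had at most 10% of reads there, the lowest of them at -4.38. The longest run of falling bins, 4 in a row from 241501 to 243500 on the unplaced sequence chr9_random, belonged to the same kind: 68.4% to 81.1% of its pPGK reads were at low-score positions, and its log2 ratios ran from -1.93 to -1.51.

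A set of 68 falling bins had dense and clean coverage: at least 60 distinct pPGK positions, at most 2% of pPGK reads under score 30, and a fall that met the rule without low-score or both-strand positions. This set was defined after the values were seen. Its log2 ratios ran down to -1.17 with a median of -0.74, and 66 of the 68 remained 1.5-fold lower without the position that held most reads. The ratio was below 0 on both strands in 63 of 68. It was 1.5-fold lower on both strands in 15, on the minus strand alone in 37, and on the plus strand alone in 16.

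The lowest of them, chr12:34643001-34643500, had 35.0 RPM with pPGK, 15.6 with PMA_I, 52.1 with SCP1 and 114 with pR-Ea. It fell 2.24-fold with PMA_I (log2 ratio -1.17 ± 0.21, SE over positions), with 16 of its 17 positions of at least 20 reads lower. The fall was on the minus strand (log2 ratio -1.38), and the plus strand showed -0.08. The bin was above input with all 3 promoters without the stimulus, at 0.57 with pPGK, 0.23 with SCP1 and 0.60 with pR-Ea on the log2 scale, and under it with PMA_I at -0.59.

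At chr3:68848501-68849000 there were 132 RPM with pPGK, 59.9 with PMA_I, 239.5 with SCP1 and 131 with pR-Ea. The fall was 2.21-fold (log2 ratio -1.14 ± 0.14) over 156 pPGK positions, and 48 of 53 deep positions were lower. Again the minus strand (-1.39) was lower than the plus strand (-0.37). Activity over input was 0.70 with SCP1 and -0.08 with pR-Ea.

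The bin chr7:17509001-17509500 fell alike on both strands, by -1.08 on the plus and -1.06 on the minus strand. It had 75.8 RPM with pPGK, 35.0 with PMA_I, 165 with SCP1 and 88.1 with pR-Ea, a 2.17-fold fall (log2 ratio -1.11 ± 0.10). Its output over input was highest with SCP1, at 0.87, and it lay at -0.04 with pR-Ea.

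The bin chr2:118325001-118325500 combined a fall with strong output. It had 42.5 RPM with pPGK, 22.9 with PMA_I, 60.2 with SCP1 and 15.0 with pR-Ea. The fall was 1.85-fold (log2 ratio -0.89 ± 0.18), with -0.75 on the plus and -0.99 on the minus strand. Its activity was 1.35 with pPGK and 1.84 with SCP1 and remained 0.46 with PMA_I, so it stayed above input after the fall. The other densely covered bins among the 10 lowest ran from -1.10 to -0.82 in their log2 ratio, as the plot of the change on each strand shows.

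**Figure D2:**
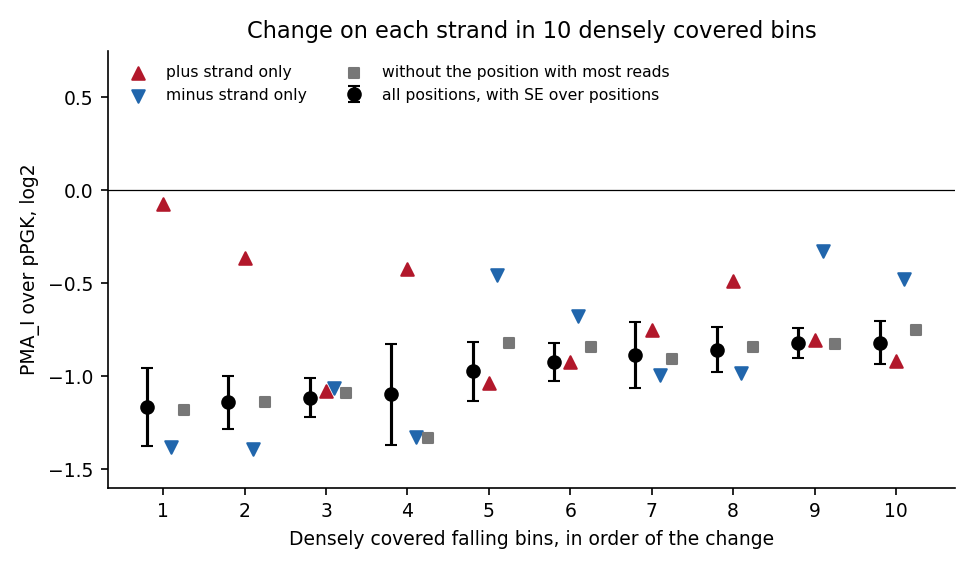
The log2 ratio of PMA_I over pPGK in the 10 densely covered falling bins with the lowest ratio, numbered in order. Black points are all positions with the standard error over positions, triangles are each strand alone and squares leave out the position with most reads. All values lie below 0, from -0.08 on the plus strand of the first bin to -1.39 on the minus strand of the second.

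The falling bins were more often strongly active with SCP1, a library that did not enter the choice beyond the minimum of input reads. With SCP1, 111 of 1120 (9.91%) were at least 2-fold above input, against 3.78% of all kept bins, 4.45% of the other bins not low with pPGK and 4.50% of the 1022 rising bins. In the other direction, 58 (5.18%) were at least 2-fold below input, against 14.9% of all kept bins, 6.41% of the others and 10.2% of the rising bins. The rising bins differed in make-up from the falling bins. Their median share of pPGK reads under the score limit, which were not used, was 19.2%, against 0.596% in falling bins. Their medians were 316 pPGK reads and 114 pPGK input reads, against 508 and 171 in falling bins. How far this bears on the comparisons with rising bins, here and below, was not tested. The median SCP1 activity was 0.12 in falling bins, -0.01 in the other bins not low with pPGK and -0.12 in rising bins. For falling bins the binomial 95% interval over bins was 0.08 to 0.16, which takes bins as independent and leaves out variation between libraries. The gap to the others was widest at the upper end, as the curves of activity by promoter show: at 90% of bins the values were 0.99 and 0.71, at 10% they were -0.69 and -0.81, and at 2% falling bins were the lower, at -1.55 against -1.44. The displacement of the median is well under the standard error of a single bin, whose median was 0.26 with SCP1. The displacement therefore describes the set in these libraries and cannot be read from 1 bin. When the falling bins were chosen anew from plus-strand reads alone, the order of the medians turned, to -0.049 against 0.0055 in the others, while the share above input stayed higher (7.80% against 5.92%).

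With pR-Ea the falling bins stood much closer to the others. The median pR-Ea activity was 0.11 in falling bins, 0.08 in the others and 0.04 in rising bins, and it was higher in falling bins than in the others under 11 of the 18 alternative settings tried. At least 2-fold above input were 18 (1.61%), against 0.859% of all kept bins, 0.988% of the others and 1.86% of the rising bins. At least 2-fold below were 29 (2.59%), against 8.4% of all kept bins and 3.04% of the others. Across the 1120 falling bins the rank correlation of SCP1 with pR-Ea activity was 0.13, and 0.24 across the 23181 others; these are descriptions over bins that share their libraries and genome windows.

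**Figure D3:**
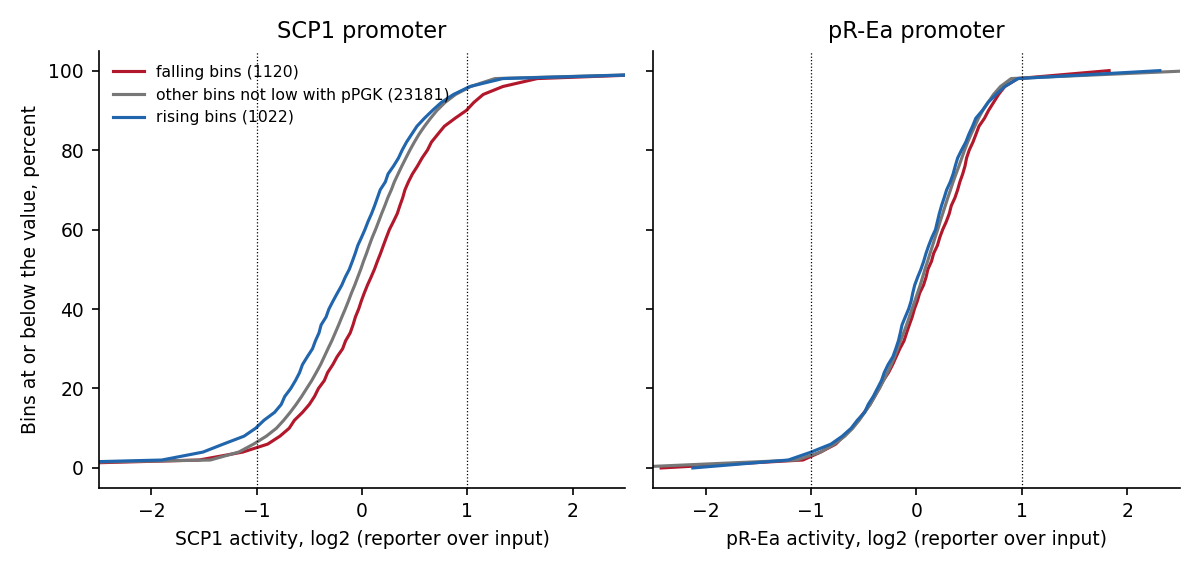
Cumulative share of bins by log2 activity (reporter over input) with SCP1 on the left and pR-Ea on the right, for the 1120 falling bins, the 23181 other bins not low with pPGK and the 1022 rising bins. Dotted lines mark 2-fold below and above input. Above the lowest few percent, the falling bins lie to the right of the others with SCP1 (median 0.12 against -0.01) and nearly on them with pR-Ea (0.11 against 0.08).

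The higher share with SCP1 was present at every level of pPGK activity. Among bins with a pPGK activity over 1 on the log2 scale, 36 of 86 falling bins (41.9%) were at least 2-fold above input with SCP1, and 28.8% of the others. Between 0.5 and 1 it was 14.6% of falling bins and 8.29% of the others. Between 0 and 0.5 it was 5.33% and 2.19%, and between -0.5 and 0 it was 4.40% and 0.917%. It was present at each level of coverage too: with up to 20 pPGK positions the shares were 8.80% and 4.71%, and with over 80 they were 13.9% and 5.69%. Among the 68 densely covered bins, 10 (14.7%) were above, against 4.97% of 1810 bins not low with pPGK that did not fall and met the same minimum of positions and limit on low scores, without the condition on both-strand positions. Their median SCP1 activity was 0.36, against 0.10.

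**Figure D4:**
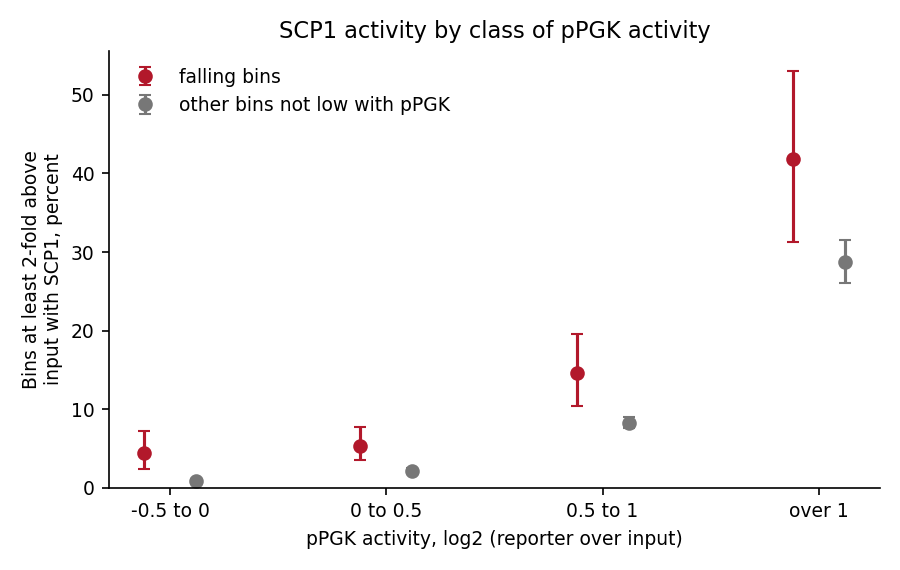
Percent of bins at least 2-fold above input with SCP1, by class of pPGK activity (log2), for falling bins in red and the other bins not low with pPGK in grey. Points are shares and bars are exact binomial 95% intervals over bins, which take bins as independent. The red point is above the grey one in each class, from 4.40% against 0.917% to 41.9% against 28.8%.

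Low-score positions moved with this result in part. Of the 196 falling bins with over 10% of pPGK reads at such positions, 31 (15.8%) were at least 2-fold above input with SCP1, and of the other 924 it was 80 (8.66%). Among the other bins not low with pPGK the matching shares were 7.19% and 4.25%. Among falling bins at or under -2, 12 of 38 were above, and all 12 had over 10% of reads at low-score positions. When the falling bins were kept and only the reads behind SCP1 activity were changed, the share was 11.8% on the plus strand (5.67% of the others), 9.82% on the minus strand (4.77%) and 8.93% without the position with most reads (4.19%). With the median of each log2 ratio over all kept bins set to 0, 12.3% of the bins that then met the rule and 7.10% of the others were above.

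Several of the strongest sites with SCP1 kept part of their output under the stimulus. The falling bin with the highest SCP1 activity, chr11:23914001-23914500, had 500 RPM with SCP1, 757 with pPGK, 484 with PMA_I and 201 with pR-Ea. Its activity over input was 3.69 ± 0.12 with SCP1, 2.23 with pPGK, 1.58 with PMA_I and 0.59 with pR-Ea on the log2 scale, so it lost 1.56-fold and remained far above input. Without low-score and both-strand positions its fall was -0.43 and no longer met the rule. Next came chr19:43786001-43786500, with 91.8 RPM with SCP1, 65.7 with pPGK, 41.4 with PMA_I and 30.9 with pR-Ea. Its activity was 3.33 ± 0.47 with SCP1, 2.19 with pPGK, 1.52 with PMA_I and 0.23 with pR-Ea.

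The third, chr5:140253001-140253500, had an activity of 3.15 ± 0.26 with SCP1 and 1.48 with pPGK, and its fall of -0.70 rested on 21 pPGK positions. Among the well covered ones, chr12:102321501-102322000 had 319 RPM with SCP1, 272 with pPGK, 158 with PMA_I and 157 with pR-Ea. It fell 1.72-fold, with -0.85 on the plus and -0.65 on the minus strand, from an activity of 1.63 to 0.85. A 1.65-fold fall was measured at chr9:71333501-71334000, with -0.66 and -0.77 on the strands, where the activity was 1.67 with SCP1 and -0.15 with pR-Ea. In these 5 bins the order was SCP1 over pPGK over PMA_I over pR-Ea in activity, and they were picked for their SCP1 activity. Among other well covered bins high with SCP1, the order held at chr7:149854001-149854500 (2.67, 2.32, 1.61 and 0.89). It held at chr2:118325001-118325500 too (1.84, 1.35, 0.46 and 0.41). It did not hold at chr6:3082001-3082500, where pR-Ea at 0.55 was over PMA_I at 0.24.

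Of the 86 falling bins at least 2-fold above input with pPGK, 36 were so with SCP1 too, and 3 of the 111 above with SCP1 were still 2-fold above with PMA_I. Above with both SCP1 and pR-Ea were 2, where 111 were above with SCP1 and 18 with pR-Ea. The share of the other bins above with both is not given here, so 2 cannot be called few or many. Activity over input with all 3 promoters, of any size, was found in 347 falling bins (31.0%) and in 27.2% of the others. At the low end with SCP1 were chr10:20067001-20067500 at -2.53 ± 0.59 and chr4:133443501-133444000 at -2.34 ± 0.65. Their pPGK activity was -0.33 and -0.41, and 17 and 23 pPGK positions lay behind their falls of -0.74 and -0.76.

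With pR-Ea the highest falling bins of at least 200 input reads reached about 2-fold: chr17:88464001-88464500 at 1.08 ± 0.12, chr7:53651501-53652000 at 1.05 ± 0.09 and chr13:25029001-25029500 at 1.03 ± 0.10. The lowest of these was chr11:109224001-109224500 at -1.31 ± 0.20, followed by chr10:90644001-90644500 at -1.29 ± 0.14. The lowest of all, chr2:177946501-177947000 at -2.42, had fewer pR-Ea input reads than that minimum and 32.5% of its pPGK reads at low-score positions. The range of pR-Ea activity was thus narrower than that of SCP1 activity, from -2.42 to 1.83 against -4.34 to 3.69 over all falling bins.

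Bins next to a falling bin were lower more often than other bins with a neighbour, though most were not lower by this fold. Of 934 kept bins that touch a falling bin, 111 (11.9%) were themselves 1.5-fold lower, against 5.97% of the 16207 kept bins that touch any kept bin. Of these 111, 96 were falling bins that touch each other, chosen by these same values. Among the 838 neighbours that are not falling bins, 15 (1.79%) were 1.5-fold lower, against 1.02% of bins that touch other kept bins only. Leaving out the falling bins, the median log2 ratio of PMA_I over pPGK was -0.16 in 838 bins that touch one and -0.02 in 14565 bins that touch other kept bins only. It was 0.09 in 407 bins next to a rising bin, where rising bins were left out and falling bins were not. A ratio below 0 was found in 68.0% of the first and 52.7% of the second set. Both sets leave out falling bins, and so are cut off by the same ratio that is compared here. On positions neither listed under 30 in any file nor on both strands, the medians were -0.19 and -0.02, and 15.6% of bins next to a falling bin were 1.5-fold lower, against 4.58% of bins next to any kept bin. With the falling bins left out the share was 1.80%, against 0.670% of bins that touch other kept bins only. Both shares again count only bins low with pPGK. These neighbours come from the same libraries. Fragments of 315 bp near an edge hold sequence of both bins, and if the libraries were read from both ends, 1 plasmid would add to both, which was not tested.

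**Figure D5:**
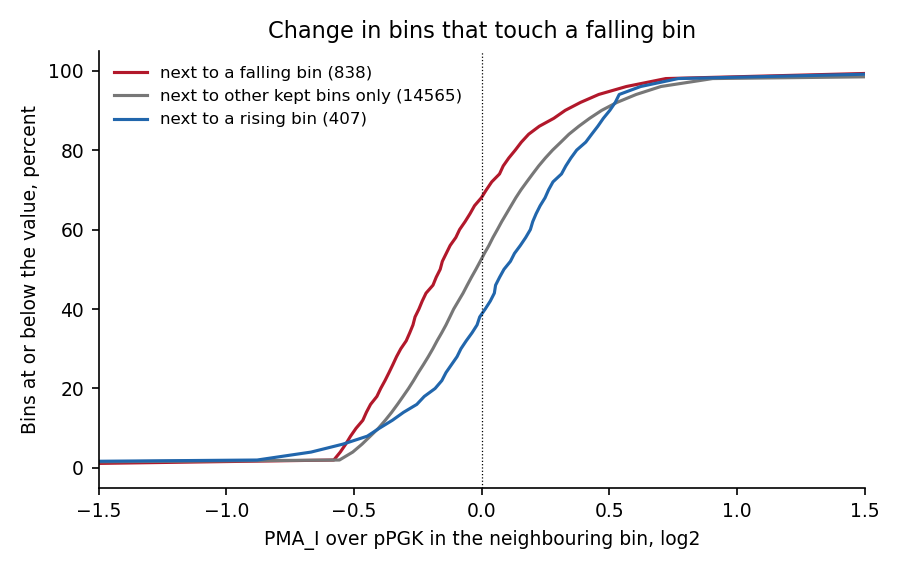
Cumulative share of bins by the log2 ratio of PMA_I over pPGK, for 838 bins that touch a falling bin, 14565 that touch other kept bins only and 407 that touch a rising bin. Falling bins are left out of the first pair of curves and rising bins out of the third, and the curve next to falling bins lies to the left, with a median of -0.16 against -0.02.

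Most falling bins stood alone. A count of 1024 touched no other falling bin, 40 runs held 2 bins, 4 held 3 and 1 held 4, so that 96 (8.57%) touched another. A bin can touch another only where the next bin was kept, and 16207 of all 30857 kept bins touched a kept bin. Within 10 kb of another falling bin were 145 (12.9%), and 80 of the rising bins (7.83%) lay as near to another rising bin. On the autosomes and the X the share of kept bins that fell ran from 2.53% on chromosome 16 to 5.22% on the X. On sequences not placed in the assembly, 13 of 62 kept bins fell, 6 of them of 19 on chrUn_random.

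How firmly each fall was supported varied within its own reads. On the plus strand alone 684 (61.1%) were still 1.5-fold lower and on the minus strand alone 694 (62.0%), where 9.28% and 10.5% of all kept bins were. On both strands at once it was 272, and 1.06% of all kept bins. Without the position with most reads in either library 845 (75.4%) were still lower, against 8.58%. Counted by distinct positions in place of reads, 283 (25.3%) were, against 8.65%. The median log2 ratio of distinct positions was -0.37, and it was below 0 in 903 of 1120. In the median falling bin 75.8% of the positions of at least 20 reads were lower with PMA_I, against 44.4% in the others. These values come from the libraries that chose the bins and describe what the choice rests on.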

How the data were processed

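The labels gave 7 samples, and 4 deposited tables, 1 per reporter library, were used. The submitters' processing notes name build mm9 and the tools bedtools 2.28.0, SAMtools and Bowtie2. The deposited counts are whole numbers of reads per 5' position, not normalized; that column 7 is the reporter and column 8 the input was read from the values. The deposited mapping score was used as a filter (at least 30). Fragments of 315 bp were placed by midpoint in bins of 500 bp, a position on both strands was counted once at its first listed line, and a pseudocount of 1 was added. Totals over kept bins set the scale. A standard error was taken over positions; binomial 95% intervals over bins are exact. The code of the rule was run on simulated counts, drawn around the observed bin totals. Falls were planted only in well-read bins above input with pPGK. Variation between positions, strands, scores or cultures was not simulated, so the run does not say how firm the falling bins are.

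The falling bins, lists and settings were chosen with earlier results of these data known. Bins named are the 12 with the lowest ratio (at least 200 reads and 10 positions), the 6 with most reads, the 3 highest and lowest with SCP1 and pR-Ea (at least 200 input reads), the longest run and 2 on each side of each threshold, described as far as they add to the text. The densely covered bins and the 3 with opposite activity were added after the values were seen. Planned counts of sequence motifs and distances to genes were not run, since the tables at hand belong to another build. Python 3.11.15, numpy 2.4.6, pandas 2.3.3 and scipy 1.17.1 were used.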

Additional observations from a re-analysis of the deposited data

Results flagged for a closer look

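In 3 falling bins the activity was at least 2-fold above input with SCP1 and at least 2-fold below it with pR-Ea. The difference between promoters was not tested, with 1 library each. Of the 1120 falling bins, 111 were above with SCP1 and 29 were below with pR-Ea. The share of the other bins with this pattern is not given here, so 3 cannot be called many or particular to falling bins. At chr3:95021501-95022000 the log2 activity was 1.54 with SCP1 and -1.029 with pR-Ea, over 457 and 118 input reads. At chr11:22407501-22408000 it was 1.254 and -1.072, with 44.2% of its pPGK reads at low-score positions and 44.2% at positions listed on both strands. At chr11:117733001-117733500 it was 1.025 and -1.38, with a log2 ratio of PMA_I over pPGK of -1.05 on the plus and -0.68 on the minus strand. No falling bin (0) had the opposite pattern, where 58 were below with SCP1 and 18 above with pR-Ea. For this too the share of the other bins is not given.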

How the results depend on the processing

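Settings changed the list of falling bins more than the contrast with the other bins. The share at least 2-fold above input with SCP1 was higher in the bins that met the rule than in the other bins not low with pPGK under all 18 alternatives, and the median log2 ratio next to falling bins was lower than next to other bins only under all 18. The median SCP1 activity was higher in 17 of 18; with the plus strand only it was -0.049 against 0.0055, and its sign changed to -0.025 without the position with most reads and to -0.0055 with the minus strand only.

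The number of falling bins was 729 with bins of 1000 bp, 315 with at least 200 input reads, 2323 without the position with most reads, 2624 by distinct positions, 2206 and 2704 with the plus and minus strand only, and 162 at 2-fold. Without the score filter 1149 bins met the rule, of which 184 were among the original 1120, and the median log2 ratio over all kept bins was 0.45. With the median then set to 0 (an alternative added after the data were seen) 2280 met it, 610 of them original.

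Values of the other bins not low with pPGK stand in brackets in this paragraph. Median SCP1 activity was 0.0052 (-0.026) without the score filter, 0.21 (0.029) with 200 input reads and 0.26 (0.16) with medians set to 0. It was 0.069 (0.045) by distinct positions and 0.22 (0.11) with a pPGK activity above 0. With no filter and the median set to 0 it was 0.20 (0.16). The share above input was 12.3% (7.10%) with medians set to 0, 6.24% (4.23%) without the top position and 0.877% (0.583%) by distinct positions. It was 7.80% (5.92%) on the plus and 6.88% (4.85%) on the minus strand. At 2-fold it was 16.0% (4.63%), and with a pPGK activity above 0 it was 12.1% (6.04%). Median pR-Ea activity was 0.053 (0.075) without the filter, 0.064 (0.085) with the grid shifted by 250 bp and 0.071 (0.031) with a pseudocount of 10. It was 0.066 (0.057) without the top position and 0.067 (0.066) by distinct positions. On the plus and minus strand it was 0.024 (0.064) and 0.051 (0.069). At 2-fold it was -0.081 (0.084), and with a pPGK activity above 0 it was 0.20 (0.16).

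The median log2 ratio next to falling bins was 0.0074 without the filter (0.40 next to other bins only), -0.23 with 200 input reads, -0.23 with every line counted, -0.22 by distinct positions, -0.10 on the plus strand and -0.11 at 2-fold. Under alternatives added after seeing the data it was -0.21 with the last listed line and -0.21 without both-strand positions, -0.19 without these and low-score positions, and -0.20 with no filter and the median set to 0.

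Without the filter, 46 named falling bins moved by more than their standard error and 3 did not. Of the 10 densely covered bins with the lowest ratio, 1 was then still 1.5-fold lower, with log2 ratios from -0.59 to -0.24, and all measured ones were under every other alternative run on them. The median over all kept bins was 0.45 without the filter and 0.02 with it, and the threshold was not moved. Named falling bins with no pPGK reads under the score limit rose by similar amounts where measured. For example, chr8:128998501-128999000 went from -0.585 to -0.001 and chr11:6344001-6344500 from -0.972 to -0.388. Bins with many such reads could fall, as chr9:35112501-35113000 did, from -2.56 to -4.11. Of the named bins, chr11:23914001-23914500 changed to 0.19 and chr11:22407501-22408000 to 0.053 without the filter. In bins of 1000 bp chr11:6313501-6314000 was at 0.26, chr2:98506001-98506500 at 0.084 and chr2:177946501-177947000 at 0.023, and the first was at 0.94 with every line counted. The causes were not tested. The shifted grid gives no value for a named bin. No paired analysis was possible because each group held 1 library. Depth limits single bins: 50 input reads is the least behind any activity.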
